A study of Mus musculus with 12 samples.

Results

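The Krüppel-like factor genes described here are 10 members of the family, Klf2, Klf3, Klf4, Klf5, Klf6, Klf7, Klf9, Klf13, Klf14 and Klf15. They are 10 of the 21853 protein-coding genes of the annotation used as the background, and they were taken by name, with earlier results of these data known. The study is about proteolytic clipping of histone tails in the mouse small intestine, and it mapped modifications of the H3 tail along the genome in crypts and in villi, the proliferative pits and the finger-like projections that differentiated cells cover. Peak lists show where a modification was called and not how much of it there was, and the part of clipping in any difference below was not tested. Crypts were released with EDTA after the villi had been scraped off, so both groups are untreated bulk epithelial preparations that can hold cells of other types, and strain, age and sex are not given in the sources used here. Chromatin from each compartment was immunoprecipitated for H3K4me3, H3K4me1, H3K27me3, H3K9me3 and H3K9me2 with 5% of Drosophila S2 chromatin added, and each compartment had an input. Each modification was sequenced in 1 library of crypts and 1 of villi, so no difference between crypts and villi has a replicate check or a p-value, the order of neighbouring values cannot be set against a spread, and depth is unknown from the deposited lists. In bulk chromatin, a change in the share of cells that carry a modification and a change in every cell cannot be told apart.

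Krüppel-like factors are transcription factors whose carboxyl-terminal zinc fingers bind GC-rich and CACCC-type DNA. In the intestinal epithelium, Klf5 is known from the proliferating cells of the crypts and Klf4 from the differentiated cells of the villi, including goblet cells. H3K4me3 marks active or poised promoters, H3K4me1 enhancers and the flanks of promoters, H3K27me3 genes held silent by Polycomb proteins, and H3K9me3 heterochromatin.

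H3K4me3 lay at the promoter of 9 of the 10 Klf genes in crypts and of all 10 in villi, beside 57.7% and 57.9% of all protein-coding genes. At several of the members it was broad. Klf5 carried the second widest H3K4me3 peak of all in crypts and was among the widest in villi too. Klf4 had wider and higher-ranking H3K4me3 in villi. The log2 width ratio of its widest peak, 0.57 as called, came to 0.13 once peaks under 1 kb apart were merged. Klf4 also had more H3K4me1 peaks outside its window in villi, and most of those without a counterpart in crypts were low in their list. Klf2, Klf14 and Klf15 were the members with H3K27me3, and H3K9me3 was called near Klf3 and Klf9 in crypts alone. A called peak is a stretch in which the authors' caller found enrichment at a p-value of 1e-10, and its score is the authors' −log10 p-value, which is given below by its percentile among the peaks of its own list. The window of a gene is its body with 5 kb on either side, and its promoter is 1 kb on either side of any protein-coding start site.

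The promoter sequences of 8 members were matched by symbol in a RefSeq table for GRCm38.p6. Klf5 and Klf14 were not among them. Of the printed promoters, that of Klf4 lies in a gap between H3K4me3 peaks, wholly in villi and mostly in crypts. That of Klf2 lies beside overlapping H3K4me3 and H3K27me3. That of Klf15 reaches into the interval that parts the H3K27me3 of crypts from that of villi. Each is given as the 250 bases before the RefSeq start, on the strand of the gene, and capitals mark CACCC or its reverse complement GGGTG, and GGGCGG or its reverse complement CCGCCC, the letters of the CACCC box and of the GC box.
Klf4, chr4:55532476-55532725, minus strand: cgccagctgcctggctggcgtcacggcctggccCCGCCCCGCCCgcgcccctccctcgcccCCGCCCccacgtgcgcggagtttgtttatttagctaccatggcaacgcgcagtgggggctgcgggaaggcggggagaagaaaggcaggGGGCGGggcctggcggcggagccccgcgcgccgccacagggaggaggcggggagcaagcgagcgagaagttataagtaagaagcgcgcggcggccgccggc
Klf2, chr8:72318812-72319061, plus strand: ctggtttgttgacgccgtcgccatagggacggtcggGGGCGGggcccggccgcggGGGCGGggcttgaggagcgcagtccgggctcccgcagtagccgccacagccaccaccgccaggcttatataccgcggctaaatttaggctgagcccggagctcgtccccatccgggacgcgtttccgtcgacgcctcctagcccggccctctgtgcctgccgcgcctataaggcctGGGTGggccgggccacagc
Klf15, chr6:90462326-90462575, plus strand: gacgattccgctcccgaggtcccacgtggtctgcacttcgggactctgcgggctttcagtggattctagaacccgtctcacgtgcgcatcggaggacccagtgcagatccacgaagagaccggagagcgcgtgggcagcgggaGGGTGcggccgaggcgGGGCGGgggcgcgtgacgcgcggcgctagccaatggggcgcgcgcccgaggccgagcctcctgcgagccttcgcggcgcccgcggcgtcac

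The promoters of the family were GC- and CpG-rich. GC content was 74% for Klf4, 71.2% for Klf2 and 72% for Klf15, and it lay between 59.2% (Klf7) and 78.4% (Klf3) over the 8 promoters, against a median of 52.4% over 32851 promoters of the table. The ratio of observed to expected CpG was 0.941 for Klf4, 0.915 for Klf2 and 1.15 for Klf15, and the lowest member value was 0.599 (Klf3), still above the median of 0.373 over all promoters. On either strand, 7 of the 8 promoters held GGGCGG, as did 32.7% of all promoters. CACCC was found in 6 of the 8 and in 52.0% of all promoters, and TATAAA in 0 of the 8 and in 12.4% of all. Klf4 held 4 matches to GGGCGG and 0 to CACCC, whereas Klf3 held 6 and 5. A match to the GC box overlapped a match to the CACCC box at 1 place in Klf3 and at 1 place in Klf13. These are matches of letters in this window and no measure of binding.

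An H3K4me3 peak lay in the window of 9 of the 10 members in crypts and of 10 in villi, beside 63.2% and 63.5% of all protein-coding genes. The same counts held at promoters, beside 57.7% in crypts and 57.9% in villi. Klf14 was the member without H3K4me3 in crypts. H3K4me1 was found in 10 of 10 windows in each compartment, beside 69.1% and 68.8% of genes. At promoters it was found for 9 members in crypts (all but Klf5) and for 8 in villi (all but Klf5 and Klf9), beside 57.9% and 56.1%. An H3K27me3 peak lay in 3 windows in each compartment, those of Klf2, Klf14 and Klf15, beside 17.9% of genes in crypts and 23% in villi. All 3 had it at the promoter too, beside 13.1% and 16.1%. H3K9me3 lay in 2 windows in crypts and 0 in villi, beside 3.89% and 3.11%, and at 0 promoters in each, beside 0.38% and 0.311%. The H3K9me2 lists, with 6 regions in crypts and 3 in villi, had 0 at a member. Lists this short cannot show whether the members carry H3K9me2.

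**Figure D1:**
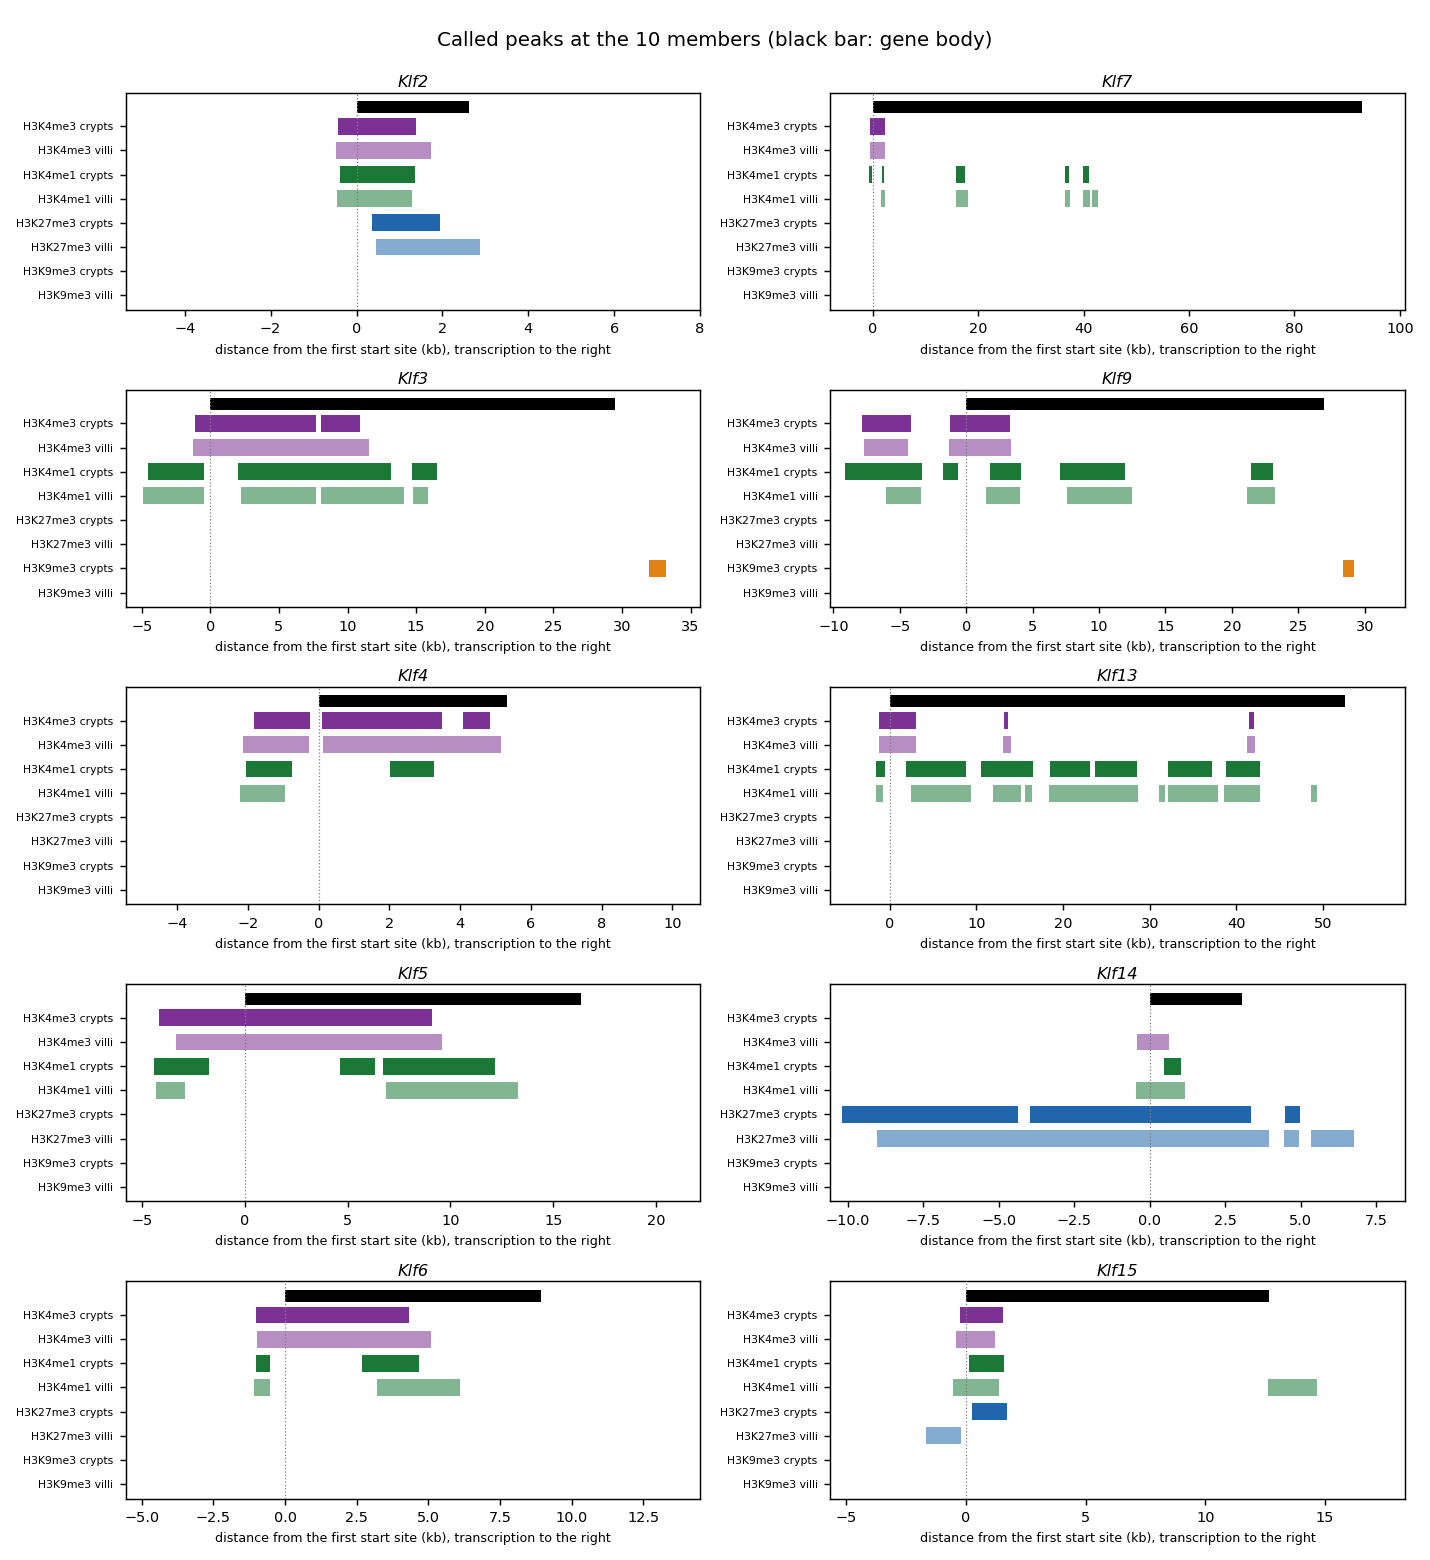
Called peaks of 4 histone modifications in the windows of the 10 members, against the distance in kb from the first start site, with transcription to the right; each row is 1 library (crypts dark, villi light) and the black bar is the gene body, with a scale of its own in each panel. H3K4me3 covers the 5′ part of each gene but Klf14 in crypts, and H3K27me3 appears at Klf2, Klf14 and Klf15.

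Altogether 102 peaks of the 169072 in the lists lay in these windows. Of the H3K4me3 peaks, 15 of 15 in crypts and 13 of 14 in villi overlapped a peak of the other compartment by at least 1 bp, where 93.3% and 90.6% of the whole lists did. For H3K4me1 it was 26 of 30 and 27 of 31, beside 81.7% and 82.1%. For H3K27me3 it was 4 of 5 and 3 of 5, beside 90.4% and 44.4%, and the villi list is the longer by far, with 13797 peaks against 7611. Neither of the 2 H3K9me3 peaks had a counterpart, beside 39.4% in crypts and 41.6% in villi. For H3K4me3 and H3K4me1 these shares were near those of the whole lists. The 4 H3K4me1 peaks of crypts without a counterpart lay at Klf4, Klf5, Klf7 and Klf9, and the 4 of villi at Klf7, Klf13 (2 peaks) and Klf15. Their median width was 1175 bp against 2186 bp for the others in crypts and 900.5 bp against 2298 bp in villi. The Klf15 peak among them measured 2027 bp.

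Klf5, which promotes proliferation of crypt cells, had the most extended H3K4me3 of the family. In crypts a single peak of 13275 bp ran from −4.15 kb to 9.12 kb around the first start site (chr14:99294540-99307814) over upstream sequence and untranslated and coding exons. It was the second widest of 16489 H3K4me3 peaks in crypts. In villi the peak measured 12915 bp (chr14:99295364-99308278) and stood at rank 5 of 16977. The median H3K4me3 peak was 1584 bp in crypts and 1498 bp in villi. H3K4me3 thus covered 50.4% of the Klf5 window in crypts and 49.0% in villi, the highest share of the family in each. By score, the peak lay at percentile 75.7 in crypts and 96.8 in villi, so that the place of the peak in the ranking moved up in villi although its width did not.

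Klf4, which promotes differentiation in the villi, had the second highest share of its window under H3K4me3, while by the width of its widest peak it stood behind Klf3 and Klf6 in both compartments and behind Klf9 and Klf13 in crypts. In crypts it had 3 H3K4me3 peaks of 746, 3397 and 1578 bp, whereas in villi the 2 within the gene were a single peak of 5044 bp and the upstream peak measured 1859 bp. The widest peak stood at rank 1279 in crypts and 419 in villi, a log2 width ratio of 0.57 that came to 0.13 once peaks under 1 kb apart were merged. H3K4me3 covered 37.3% of the window in crypts and 45.0% in villi. This difference of 7.71 points was above that of 98.3% of the 14134 genes with an H3K4me3 peak in either compartment. It was 16.9 points over the gene body alone and 4.16 points with such merging. Within the family Klf14 had a larger difference, 8.17 points, from 0 in crypts. A gap of 343 bp in crypts (chr4:55532365-55532707) and of 388 bp in villi (chr4:55532348-55532735) parted the upstream peak from the one in the gene. The first start site, at 55532466, lies in this gap in both lists. The GC-rich sequence printed above for Klf4 lies wholly in the gap in villi. In crypts the sequence reaches past the outer end of the gap into the upstream peak.

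The other members ranged widely. Klf3, a repressor that works through CtBP co-repressors, had H3K4me3 peaks of 8827 and 2878 bp in crypts and of 12845 bp in villi, where both places were joined, and its widest peak stood at rank 18 in crypts and 7 in villi. The start sites of the non-coding genes Gm20033 and C230096K16Rik lie under this peak, and lists of peaks do not tell which gene a modification belongs to. Klf6, an early-response factor, had 5336 bp in crypts and 6082 bp in villi. The widest peak of Klf9, which is induced by glucocorticoids, measured 4490 bp in crypts and 4599 bp in villi, and that of Klf13 measured 4298 bp and 4343 bp. Klf7, known from the nervous system, had 2779 bp and 2784 bp. Klf2, a factor of endothelial cells and lymphocytes, had 1807 bp and 2226 bp. Klf15, a regulator of amino acid and glucose metabolism, had 1783 bp and 1664 bp. Klf14, a single-exon gene, had no H3K4me3 peak in crypts and 1067 bp in villi.

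In villi, 6 of the 10 members (Klf3, Klf4, Klf5, Klf6, Klf9 and Klf13) had a window peak in the widest 5% of the list, beside 4.97% of all protein-coding genes. In crypts 5 of the 10 did, beside 4.92%, Klf4 standing at percentile 92.2. Klf3 and Klf5 were in the widest 1% in both, beside 0.988% of genes in crypts and 1.07% in villi. Where 1 peak of crypts met 1 of villi, the H3K4me3 peak was wider in villi at 8 of 11 member places, with a median log2 ratio of villi to crypts of 0.03, against −0.03 over 14941 places of the whole lists. For H3K4me1 it was wider in villi at 16 of 21 places, with a median of 0.12 against −0.01. The quartiles over the whole lists were −0.17 and 0.11 for H3K4me3 and −0.27 and 0.25 for H3K4me1. Both member medians lay between them, and several of the member places lie at the same gene. The member places leave out those where peaks were joined in villi, such as the H3K4me3 of Klf3 and of the Klf4 gene. Single H3K4me1 places reached log2 ratios of 1.51 (Klf14) and −0.91 (Klf5).

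**Figure D2:**
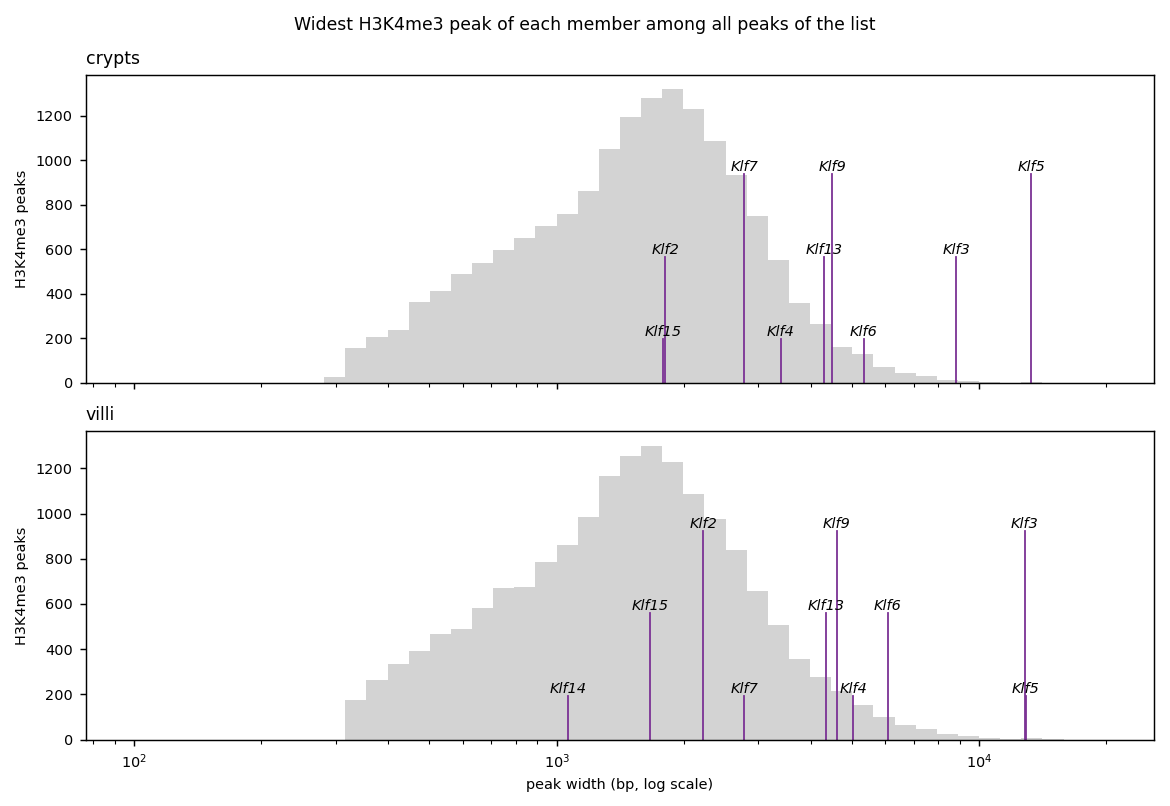
Number of H3K4me3 peaks by peak width (bp, log scale) in crypts and villi, in grey, with the widest peak of each member as a purple line whose height has no meaning. Klf5 and Klf3 lie at the far right in both, and Klf4 lies further right in villi (5044 bp) than in crypts (3397 bp). In crypts the Klf4 gene held a further peak of 746 bp that was joined to the widest one in villi.

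Per length, the share of the window under H3K4me3 in crypts went from Klf5 (50.4%) and Klf4 (37.3%) over Klf3 (29.6%), Klf6 (28.2%), Klf9 (14.4%), Klf2 (14.3%), Klf13 (8.73%), Klf15 (7.87%) and Klf7 (2.70%) to Klf14 at 0. In villi Klf5, Klf4, Klf3 and Klf6 kept these first places, with 49.0%, 45.0%, 32.5% and 32.2%. Klf7 was last in villi with 2.71%, and its window is the longest, 102836 bp. The share was higher in villi for 7 members, of which Klf7 differed by 0.0049 points, and higher in crypts for Klf5, Klf9 and Klf15, by at most 1.37 points. Over the gene body alone Klf5 turned to a higher share in villi, by 2.84 points. Over all genes, 6009 had a higher share in villi and 8107 in crypts.

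H3K4me1 gave another order. Klf13 had the highest share, 51.9% in crypts and 53.3% in villi, from 7 and 9 peaks, most of them along its introns and some over exons or upstream, of which 1 in each compartment covers the promoter of the protein-coding gene E030018B13Rik inside Klf13, and Klf3 followed with 42.9% and 43.4%. Klf4 and Klf5 both had less of the window covered in villi. The share of the Klf4 window was 16.8% in crypts and 8.44% in villi, since the peak of 1255 bp over a coding exon, at percentile 12.5 of its list, was called in crypts alone. Villi minus crypts, the difference was −23.6 points over the gene body alone and −1.17 points with 10 kb on either side. Within the top 50% of each list by score it turned to 8.44 points in favour of villi. The upstream promoter peak of Klf4 stood at percentile 31.3 in crypts and 53.1 in villi. The share of the Klf5 window was 37.2% in crypts and 29.7% in villi. There a peak of 1689 bp was called in crypts alone, and the upstream peak measured 2663 bp in crypts and 1413 bp in villi. The intronic peak went the other way, with 5454 bp in crypts and 6401 bp in villi. Among the 15706 genes with an H3K4me1 peak, the differences of Klf4 (−8.37 points) and Klf5 (−7.56 points) lay at percentiles 3.37 and 4.18. At the other end Klf15 (10.8 points) and Klf14 (8.07 points) lay at percentiles 95.8 and 92.8. By score, the promoter H3K4me1 of Klf15 went the other way, from percentile 72.5 in crypts to 24.9 in villi, while that of Klf14 went from 3.72 to 60.8.

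The places that Klf4 and Klf5 had under H3K4me1 in crypts alone were under H3K4me3 in both compartments. Of the H3K4me3-covered bases of Klf4, 40.7% also carried H3K4me1 in crypts and 17.2% in villi. For Klf5 it was 49.0% and 24.2%. Within the top 50% of each list, the difference between compartments was −15.4 points for Klf5. For Klf4 it was 0 because no base under both modifications was left in either compartment, so it does not show equal shares. Over the whole lists the share of H3K4me3 bases with H3K4me1 was 57.8% in crypts and 54.9% in villi. Klf2, with 97.7% and 78.5%, also had less in villi, as did Klf7 (32.8% and 23.6%), Klf13 (55.5% and 46.9%), Klf9 (54.8% and 46.8%), Klf3 (78.3% and 76.2%) and Klf6 (40.1% and 38.5%). Klf15, with 80.7% and 100%, had more.

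**Figure D3:**
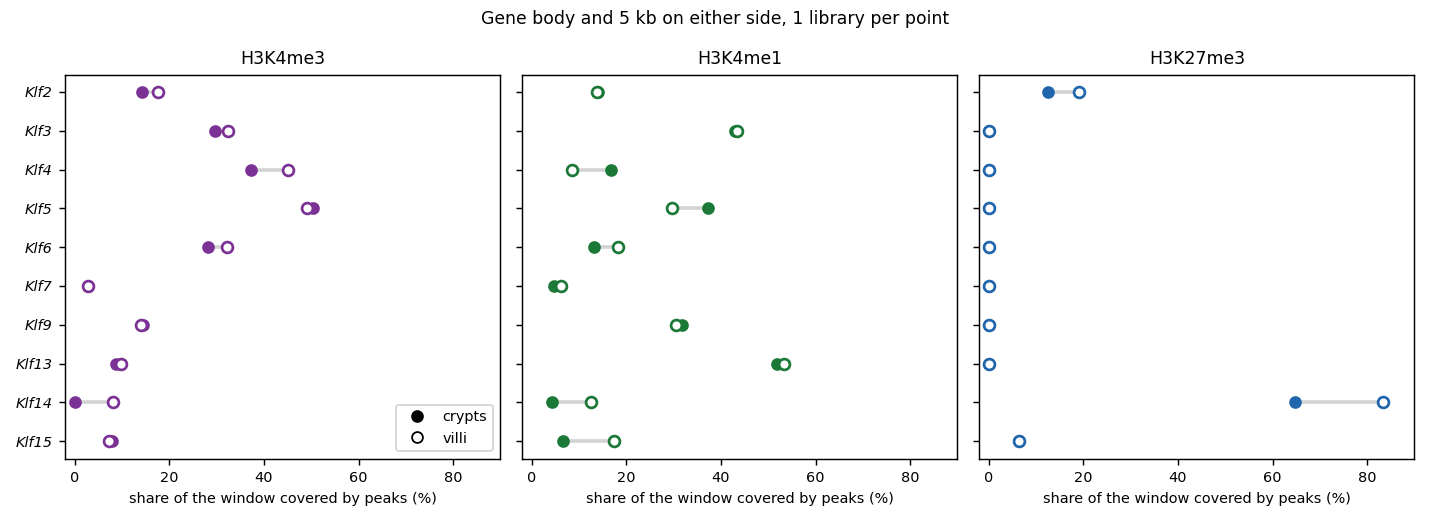
Share of each member's window (gene body with 5 kb on either side, in %) that is under peaks of H3K4me3, H3K4me1 and H3K27me3; filled points are crypts and open points villi, each from 1 library. Klf4 has more of its window under H3K4me3 and less under H3K4me1 in villi, and H3K27me3 is above 0 for Klf2, Klf14 and Klf15.

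The ranking of promoter H3K4me3 by score set Klf4 apart from the rest of the family. Its highest-scoring promoter peak had a −log10 p of 291 in crypts and 481 in villi, at percentiles 68.2 and 99.6. The difference of 31.4 points was larger than that of 12322 of the 12381 genes with a promoter peak in both compartments, and 58 genes exceeded it. The peak upstream of the start site differed less, with percentiles of 43.7 in crypts and 49.8 in villi. For Klf5 the difference was 21.2 points, which 345 genes exceeded. Klf3 stood at 80.2 in crypts and 94.1 in villi. Over all genes the median difference was 0.64 points, and 90% of genes lay between −16.2 and 17.7 points.

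Klf7 and Klf13 differed the other way. Klf7 stood at percentile 83.2 in crypts and 67.4 in villi, a difference of −15.8 points, below which 658 genes lay. This is inside the range from −16.2 to 17.7 points given above. Klf13 stood at 81.9 and 64.3, a difference of −17.6 points, below which 479 genes lay. The peak widths of Klf7 and Klf13 were almost the same in both compartments, as given above. Klf6 (88.1 and 87.1), Klf9 (87.5 and 84.6), Klf15 (37.6 and 42.2) and Klf2 (43.8 and 52.9) lay nearer to the line of equal percentiles. Score percentiles depend on the depth of each library, and 1 library per compartment gives them no error.

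**Figure D4:**
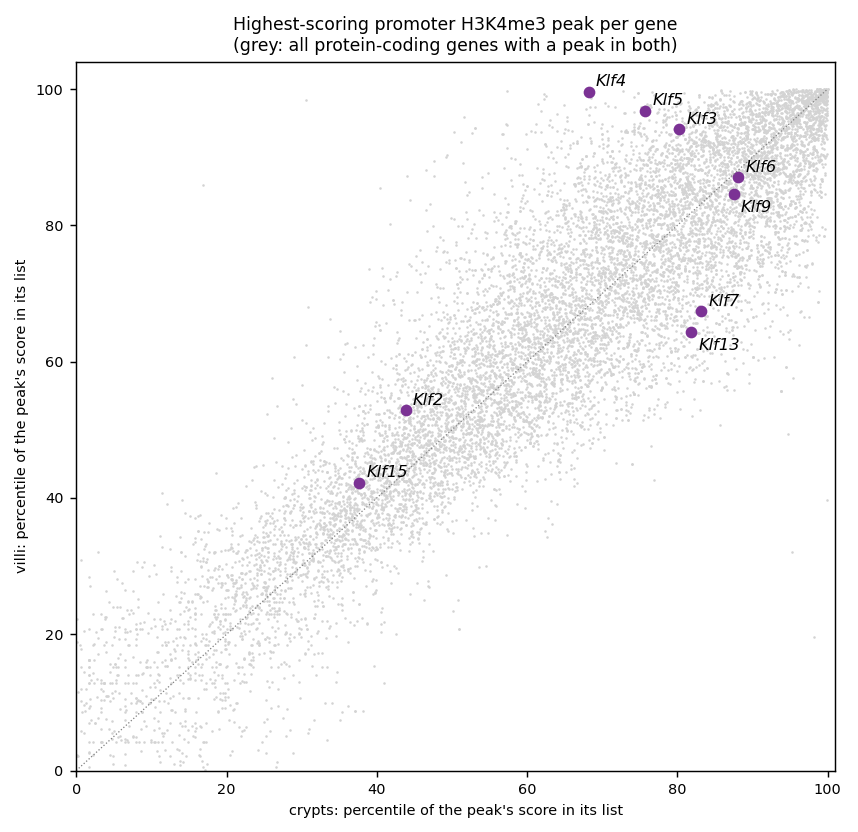
Percentile of the highest-scoring promoter H3K4me3 peak in its own list, villi against crypts, for each of the 12381 protein-coding genes with such a peak in both (grey) and the 9 members among them (purple); the dotted line marks equal percentiles. Klf4 (68.2 and 99.6) and Klf5 (75.7 and 96.8) lie above the line, and Klf7 and Klf13 below it.

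A pair of members carried H3K4me3 and H3K27me3 at the promoter in crypts (Klf2 and Klf15) and 3 did in villi (with Klf14), beside 6.59% and 7.87% of all genes. At Klf2 the modifications overlapped over 1014 bp in crypts and 1277 bp in villi. H3K27me3 began inside the gene, 0.363 kb after the start site in crypts and 0.465 kb in villi, and measured 1594 bp in crypts (chr8:72319396-72320989) and 2419 bp in villi (chr8:72319498-72321916). The sequence printed above for Klf2 was thus under H3K4me3 and outside H3K27me3 in both. Genes of other cell types were checked because Klf2 is known from lymphocytes and endothelium. H3K4me3 was called at the promoters of 0 of 5 immune genes in crypts and of 2 of 5 in villi (Ptprc and Cd3e, but not Cd79a, Itgam and Cd68). Of 3 endothelial genes, 0 had it in crypts and 1 in villi (Kdr, but not Pecam1 and Cdh5). The part of such cells in the Klf2 result was not tested. H3K27me3 was called at Cd3e in villi and at Kdr in both compartments, so that these carried both modifications in villi. Of 5 mesenchymal genes, 1 had H3K4me3 in crypts and 2 in villi. Of 6 crypt markers, 5 had H3K4me3 in crypts (not Lyz1) and 4 in villi (not Olfm4 either), and all 7 villus markers had it in both compartments. Lgr5 and Ascl2 carried H3K27me3 as well in both.

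Klf14, a gene subject to imprinting, lay in a domain of H3K27me3. The caller split the part that meets the window in crypts into stretches of 7301, 5843 and 496 bp, and in villi into stretches of 13014, 482 and 1442 bp. A further 6 peaks in crypts and 5 in villi lay around it, up to 20.9 kb and 46.8 kb from the start site. The 7301 bp peak ran from −3.96 kb to 3.34 kb and the 13014 bp peak from −9.05 kb to 3.96 kb around the start site, so that both covered the whole gene. H3K27me3 covered 64.7% of the window in crypts and 83.4% in villi, a difference of 18.7 points at percentile 92.1 among 5189 genes with H3K27me3. Within it, the H3K4me3 peak called in villi alone (chr6:30958444-30959510) covered the start site with a score at percentile 25.7. H3K4me1 was called over 570 bp after the start site in crypts and over 1624 bp across it in villi. All 1067 bp of the H3K4me3 peak lay under H3K27me3 and H3K4me1. More bases of the Klf14 window were thus called in villi for all 3 modifications, and H3K27me3 was the more widely called in villi over the genome too.

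At Klf15 the H3K27me3 peaks of the compartments did not meet. In crypts the peak lay in intronic sequence, from 0.25 kb to 1.71 kb (chr6:90462826-90464287), and in villi upstream of the start site, from −1.69 kb to −0.222 kb (chr6:90460887-90462354). The stretch of 471 bp between them holds the first start site and most of the sequence printed above for Klf15. H3K4me3 shared 1299 bp with the crypts peak and 215 bp with the villi peak. Both H3K27me3 peaks were in the lower part or the middle of their lists, at percentiles 32.9 and 51.1. The start site of the non-coding gene Gm44117 lies upstream, under the villi peak. An H3K4me1 peak of 2027 bp at the 3′ end of Klf15 (chr6:90475205-90477231) was called in villi alone, at percentile 72.9 of its list.

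Klf9 had a further H3K4me3 peak upstream of its promoter, from −7.83 kb to −4.18 kb in crypts (3648 bp) and from −7.73 kb to −4.40 kb in villi (3325 bp). The non-coding gene 2410080I02Rik (chr19:23134900-23135717), which was looked up after this peak had been seen, starts under it. H3K4me1 covered this place with a single peak of 5787 bp in crypts and with 2 peaks in villi, of 2371 bp (chr19:23132107-23134477, outside the window) and 2622 bp, which left the start of 2410080I02Rik uncovered. The promoter peak of H3K4me1 at Klf9, of 1095 bp, was called in crypts alone, as it was for 5.69% of genes, while 3.95% had one in villi alone. In Klf13, small H3K4me3 peaks stood within the gene. The one near an internal start site, from 13.1 kb on, spanned 528 bp (crypts) or 873 bp (villi). The other spanned 635 bp or 917 bp and lay past 41.2 kb, close to the start of the non-coding gene Gm27252. H3K9me3 was found past the 3′ end of Klf3 (1211 bp) and Klf9 (869 bp) in crypts alone, with scores at percentiles 22.9 and 64.8, and so away from both promoters.

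The following 200-base centres of peaks of villi, on the plus strand of GRCm38, show sequence away from the member promoters, for the Klf9 place just described (inside 2410080I02Rik), for the Klf15 peak found in villi alone and for the highest-scoring H3K4me1 peak around Klf4 without a counterpart in crypts. Capitals mark the same letters as above.
Klf9 upstream H3K4me3 peak, chr19:23135062-23135261: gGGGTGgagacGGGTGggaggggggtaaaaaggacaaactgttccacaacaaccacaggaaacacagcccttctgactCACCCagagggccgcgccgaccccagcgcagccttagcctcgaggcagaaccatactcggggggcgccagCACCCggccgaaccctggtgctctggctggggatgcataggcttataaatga
Klf15 downstream H3K4me1 peak, chr6:90476119-90476318: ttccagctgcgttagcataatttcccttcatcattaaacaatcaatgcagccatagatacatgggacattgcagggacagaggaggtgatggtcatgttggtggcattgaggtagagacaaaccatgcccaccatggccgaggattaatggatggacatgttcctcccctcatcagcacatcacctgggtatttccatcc
Klf4 distal H3K4me1 peak, chr4:55701788-55701987: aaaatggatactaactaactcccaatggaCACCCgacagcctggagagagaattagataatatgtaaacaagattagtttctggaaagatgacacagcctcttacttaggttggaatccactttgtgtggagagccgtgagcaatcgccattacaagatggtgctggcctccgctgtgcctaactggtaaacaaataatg

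The Klf9 sequence held 4 matches to CACCC and a GC content of 62%, near the median of 59% over the centres of all H3K4me3 peaks of villi, of which 49.3% held CACCC and 32.3% GGGCGG. The Klf15 sequence held 0 matches and had 48% GC, and the Klf4 sequence held 1 match to CACCC with 43.5% GC. Over the centres of H3K4me1 peaks of villi the median was 47.5%, 40.0% held CACCC and 7.27% GGGCGG. In the Klf4 sequence 79 of the 200 bases are marked as repeats in the reference.

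Around the genes, H3K4me1 peaks were assigned to a member where its start site was the nearest protein-coding one within 200 kb, and those outside the window are described here as distal. There were 125 such peaks in crypts and 153 in villi, of which 88.8% and 78.4% had a counterpart, beside 81.7% and 82.1% of the whole lists as given above. Klf4 had 19 in crypts, all with a counterpart, and 29 in villi, of which 10 had none. Of these 10, 9 lay upstream of Klf4 and 1 downstream. Their scores went from 10.2 to 26.7 with a median of 12.5, and 2 of the 10 were in the upper 50% of the list, against 14 of the 19 with a counterpart. The highest-scoring of the 10, 1788 bp wide at chr4:55700994-55702781, was centred at −169 kb and lay at percentile 80.4.

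Klf5 had 21 in crypts and 23 in villi, with 6 without a counterpart in each. Of the 6 in crypts 3 were in the upper 50% of their list, and of the 6 in villi 0 were. The highest-scoring of the 6 in crypts (chr14:99365701-99367089) was centred 67.7 kb downstream at percentile 72.1. The highest-scoring distal peak of Klf5 with a counterpart, 5934 bp wide at 95.4 kb, lay at percentile 97.7 of the crypts list. Beside the whole-list shares (81.7% in crypts and 82.1% in villi), Klf4 had fewer matched peaks in villi (19 of 29). Klf5 had fewer in both (15 of 21 and 17 of 23), as had Klf9 (4 of 8 and 5 of 7). In villi Klf6 (19 of 25), Klf14 (12 of 15) and Klf2 (0 of 1) were lower too. These counts are small, and the differences were not tested. Distal villi peaks without a counterpart were not particular to Klf4. Klf5 and Klf6 had 6 each, Klf3 had 4, Klf14 had 3, Klf9 had 2, and Klf2 and Klf7 had 1 each. Of these members Klf2, Klf3 and Klf14, like Klf4, had no unmatched distal peak in crypts.

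Klf3 (22 in crypts and 28 in villi) and Klf6 (21 and 25) were as rich in distal H3K4me1, and Klf6 had 2 unmatched peaks in crypts and 6 in villi. Klf7 had 12 and 14, Klf14 10 and 15, Klf9 8 and 7, Klf13 9 and 8, Klf15 3 and 3, and Klf2 0 and 1. Counted with those in the window, the median over all genes was 1 and the 95th percentile was 9, which 8 of the 10 members exceeded in both compartments. The span open to assignment differs between members. The next protein-coding start site upstream lies 1208 kb from that of Klf4 and 1252 kb from that of Klf6, but 13.8 kb from that of Klf2 and 33.8 kb from that of Klf15. The 10 and 15 peaks of Klf14 all lie upstream, towards and inside the non-coding gene Lncpint, in which H3K4me3 peaks 4234 bp wide in crypts and 2971 bp wide in villi are centred at −166 kb and −167 kb. Being nearest to Klf14 among protein-coding genes does not tie these peaks to it.

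**Figure D5:**
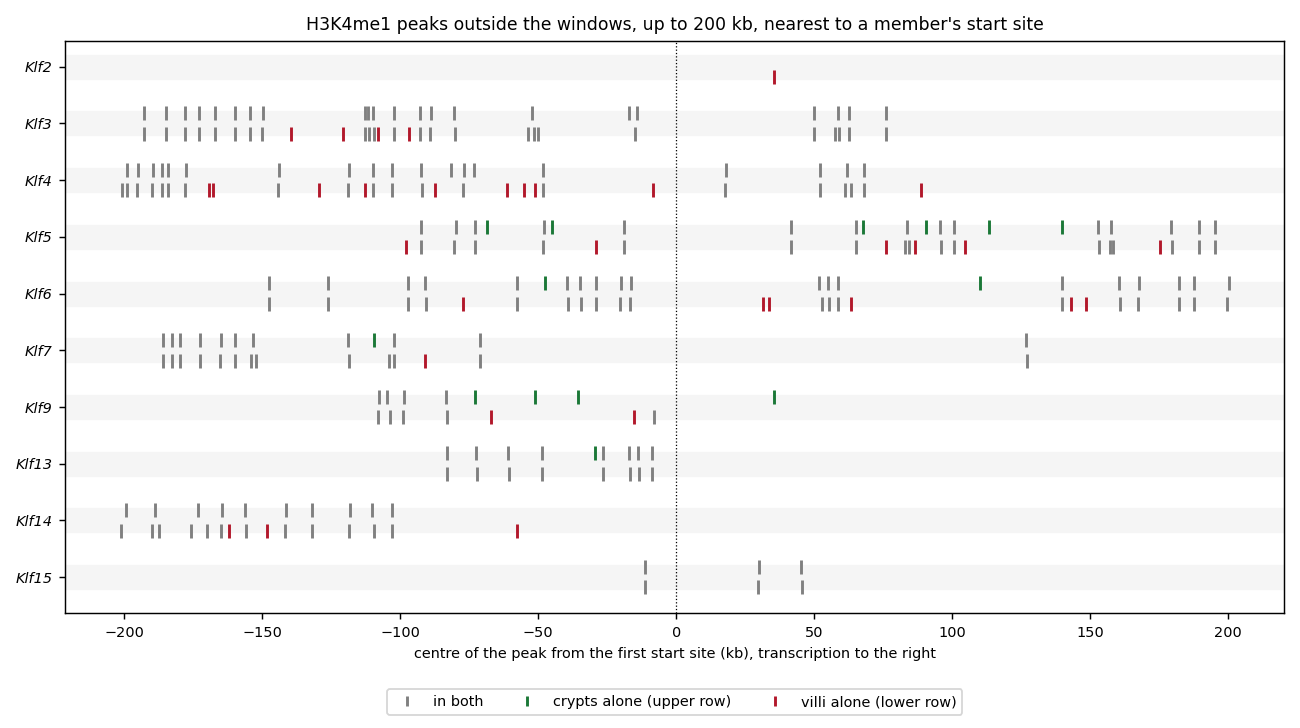
Centres of the H3K4me1 peaks outside the windows whose nearest protein-coding start site is that of a member, up to 200 kb away, against the distance in kb from the first start site; for each member the upper row is crypts and the lower row villi, grey peaks have a counterpart, and green or red peaks were called in crypts or villi alone. The 10 red marks of Klf4 lie mostly upstream, and Klf5 has 6 green and 6 red marks on both sides.

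The surroundings of Klf4 also held H3K4me3 and H3K27me3. An H3K4me3 peak was centred at −119 kb, where no gene start is annotated within 1 kb. It spanned 832 bp (crypts) or 1153 bp (villi), with scores at percentiles 29.4 and 39.2. H3K27me3 peaks of 2552 and 2367 bp in crypts and of 4134, 2532 and 1249 bp in villi were centred from −117 kb to −124 kb around it, and 2 further ones of 1658 and 790 bp, at −79.3 kb and −133 kb, were called in crypts alone. At −72.9 kb, at the start of the non-coding gene Gm12506, an H3K4me3 peak of 1735 bp was called in villi alone (chr4:55604495-55606229), at percentile 19.2. The non-coding genes were named after their values had been seen. Klf4 had 3 distal H3K4me3 peaks in crypts and 5 in villi, and Klf5 had 2 in each.

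The protein-coding genes whose 8 window shares were most like those of Klf4, by Euclidean distance, were Ubl5 (11.1 points), Phf23 (12.9 points) and Pcbp1 (13.5 points). Their H3K4me3 shares differed little between crypts and villi, from 34.7% to 36.1% for Ubl5, from 41.7% to 42.1% for Phf23 and from 38.6% to 38.2% for Pcbp1, whereas Klf4 went from 37.3% to 45.0%. For Klf5 the nearest were Fzd5 (8.80 points), Sfn (9.26 points) and Actb (9.66 points), all with H3K4me3 over 43.7% to 48.4% of the window. These likenesses are over 8 lists of 1 library each.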

How the data were processed

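Peak lists of 10 of the 12 libraries were used, 8 of them for the comparisons, and the 2 inputs and scaled signal tracks were not used here. The authors mapped paired reads with Bowtie 1.1.2 to the mouse (mm10) and fly (dm6) genomes, dropped duplicates with samblaster and reads found in both genomes, and called peaks per library with MACS2 2.1.1 at a p-value of 1e-10. The deposited lists hold positions and a score without a header, read here as the −log10 p-value of the authors' caller. A −log10 of a corrected p-value cannot be told apart from it. The fly chromatin scales the signal tracks, not the called peaks. Methods and labels differ in the amounts of chromatin and antibody, the kind of beads and the time on them.

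Overlaps of at least 1 bp were computed with Python 3.11.15, NumPy 2.4.6 and pandas 2.3.3 on GENCODE M21 genes of GRCm38, the assembly that mm10 names. The code was tested on 20000 simulated peaks and found the 13000 planted overlaps and 0 others. Sequences were read with samtools 1.23.1 and promoters from RefSeq, and figures were drawn with Matplotlib 3.10.9. A peak's start and end are given counted from 1. The text names the 10 members, some non-coding or coding neighbours under or near the peaks described, markers, related zinc finger genes and the 3 genes most like Klf4 and Klf5 in window shares. Members, lists and markers were chosen with earlier results of these data known. No test was made with 1 library in each group, and values are set beside those of all 21853 protein-coding genes. Alternatives covered the window, promoter, overlap, distance, merging under 1 kb and the top 50% of each list.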

Additional observations from a re-analysis of the deposited data

How the results depend on the processing

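Of 91 alternative settings over the counts of peaks and the median width ratios, 78 left a count within 1.5 times its value or a median log2 ratio within 0.1, and 13 moved it further. With the top 50% of each list by score, members with promoter H3K4me1 numbered 4 in crypts and 5 in villi, and members with H3K9me3 in crypts numbered 1. With the gene body alone, members with H3K9me3 in crypts numbered 0. Within the top 50% of both lists, 7 of 7 H3K4me3 peaks in crypts, 7 of 8 in villi, 15 of 18 H3K4me1 peaks in crypts and 15 of 20 in villi had a counterpart. Of the top 50% set against the whole other list, 7 of 7 and 8 of 8 H3K4me3 peaks had one. These counts are lower because fewer peaks enter. With peaks under 1 kb apart merged, the median log2 width ratio of H3K27me3 was 0.60 from 1 place, against 0.28 from 2. With peaks up to 50 kb in place of 200 kb, the H3K4me1 peaks nearest to a member, those in the windows included, numbered 55 in crypts and 57 in villi, against 151 and 179. For the window shares, score percentiles, shares of H3K4me3 bases with H3K4me1 and widest H3K4me3 peaks of Klf4 and Klf5, 30 settings were added after seeing the data, of which 19 stayed within 1.5 times, 9 moved further and 2 turned the direction. The window share difference, villi minus crypts, turned for Klf4 H3K4me1 from −8.37 points to 8.44 points with the top 50% and for Klf5 H3K4me3 from −1.37 points to 2.84 points with the gene body alone. The score percentile differences of Klf4 and Klf5 were from 31.4 to 32.2 points and from 21.2 to 21.7 points. The same values of the other members had no alternative run. No paired analysis was possible because each group has 1 library and no result comes from a test. Depth is unknown, so a missing peak shows only that none passed the authors' threshold in that library, and the H3K4me1 peaks called in 1 compartment alone mostly had low scores.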

Other observations

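The other genes with the same kind of zinc fingers, 7 further Klf genes and 9 Sp genes, included several with H3K27me3. Of these 16, 7 in crypts and 8 in villi had H3K27me3 at the promoter, beside 13.1% and 16.1% of all genes and 3 of 10 members in each. Among them Sp8, a developmental regulator, had 94.2% of its window under H3K27me3 in crypts and 97.1% in villi, Sp9 had 66.3% and 69.4%, and Sp6 had 72.7% and 69.8%. Sp7, a factor of bone-forming cells, had 45.8% in crypts and 81.8% in villi. Promoter H3K4me3 was found for 13 of the 16 in crypts and 14 in villi, beside 57.7% and 57.9% of all genes. H3K4me3 together with H3K27me3 was found for 5 (Sp5, Sp8, Sp9, Klf8 and Klf12) and 7, beside 6.59% and 7.87%. Klf17 had neither H3K4me3 nor H3K27me3 in its window. Sp6 had promoter H3K4me3 in villi alone. The named Sp genes other than those 5 were chosen after their values were seen, and the difference between the lists of genes was not tested.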
